A study of Mus musculus with 10 samples.

Results

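The genes described here are 7 members of the inflammasome and pyroptosis pathway: Casp1, Casp4, Gsdmd, Pycard, Nlrp3, Il1b and Il18. They were taken by gene symbol from the platform annotation, which gave 9 of the 45037 probe sets tested, 3 for Pycard and 1 for each of the other 6 genes. A probe set is a group of short array oligonucleotides that together report 1 transcript. The choice used no measured value of the probe sets, but it was made with earlier results of these data known.

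RNA came from mouse acute lymphoblastic leukaemia of C57BL/6 background that expresses the human p210 bcr/abl fusion and has lost the Ink4a/Arf locus. All recipients were C57BL/6 mice prepared with total body irradiation and 5-fluorouracil. The syngeneic group (5 animals) received leukaemia with C57BL/6 marrow and spleen cells, and the allogeneic group (5 animals) received it with C3.SW marrow and spleen cells. Leukaemia was sorted after 2 to 3 weeks and passed to new recipients, and after 3 serial transplants it was sorted from bone marrow by its green fluorescent protein, with 1 array per animal. Neither the animals' age and sex nor any sharing of leukaemia from 1 earlier recipient within a group is stated in the labels. A p-value here sets the group difference against the spread among these animals and takes them as independent. With leukaemia shared from 1 earlier recipient it could be too small. The comparison asks how leukaemia from an allogeneic immune environment differs from leukaemia kept in a syngeneic one.

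An inflammasome is a protein platform that a sensor such as NLRP3 forms with the adaptor ASC, the product of Pycard, to activate caspase-1. Active caspase-1 matures interleukin-1 beta and interleukin-18 and cuts gasdermin D, whose freed part opens pores in the cell membrane. The resulting lytic death is pyroptosis, and the product of mouse Casp4 can cut gasdermin D directly after sensing bacterial lipopolysaccharide. The pathway is best known from macrophages and other myeloid cells, and transcripts of Casp1, Casp4 and Gsdmd can be raised by interferons.

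Casp1 is followed on its chromosome by Casp4 and then by Casp12, with no other coding gene of the GRCm38.p6 RefSeq annotation between them. Promoter windows of 250 bases before and 50 bases after the annotated start, from RefSeq on GRCm38.p6, were found for 6 of the 7 members. They are shown for Casp1, the member that passed the test, for its neighbour Casp4, and for Pycard, 1 probe set of which also had groups that did not overlap. Capitals mark the 50 bases from the annotated start on.
Casp1, chr9:5298267-5298566, plus strand: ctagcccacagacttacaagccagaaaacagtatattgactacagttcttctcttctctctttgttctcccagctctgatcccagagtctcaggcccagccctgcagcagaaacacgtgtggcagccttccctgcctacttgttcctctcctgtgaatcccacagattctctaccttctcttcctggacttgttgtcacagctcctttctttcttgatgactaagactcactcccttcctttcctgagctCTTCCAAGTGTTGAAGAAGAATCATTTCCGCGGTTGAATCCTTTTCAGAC
Casp4, chr9:5308599-5308898, plus strand: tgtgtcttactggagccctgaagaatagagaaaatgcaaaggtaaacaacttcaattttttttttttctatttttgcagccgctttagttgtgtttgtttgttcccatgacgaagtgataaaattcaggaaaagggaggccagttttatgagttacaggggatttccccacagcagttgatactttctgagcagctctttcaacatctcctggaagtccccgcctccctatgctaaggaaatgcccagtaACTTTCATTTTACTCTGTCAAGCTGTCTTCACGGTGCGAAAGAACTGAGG
Pycard, chr7:127993818-127994117, minus strand: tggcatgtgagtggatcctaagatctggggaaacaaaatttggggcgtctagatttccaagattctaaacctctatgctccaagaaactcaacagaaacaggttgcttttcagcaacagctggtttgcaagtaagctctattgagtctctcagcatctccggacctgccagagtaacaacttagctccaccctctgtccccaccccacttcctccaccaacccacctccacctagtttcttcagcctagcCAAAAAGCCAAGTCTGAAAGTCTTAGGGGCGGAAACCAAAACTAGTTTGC
Exact matches on both strands were searched for TTCNNNGAA (a gamma-activated site, bound by STAT factors), for the consensus of the interferon-stimulated response element and for a consensus kappa-B site, 3 motifs whose matches could overlap. None of them matched in the 8 windows of the 6 members. The 2 windows of Casp4 overlap almost entirely, and Gsdmd had no window to search. Among all 32851 windows of this length, TTCNNNGAA matched in 8.3%, the interferon-stimulated response element in 3.44% and the kappa-B site in 0.155%. Variants of these sites, such as other kappa-B sequences, were not searched. The absence of these letters therefore says nothing about binding in these windows or elsewhere.

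Arrays gave 1 linear intensity per probe set, which was converted to log2 and then quantile normalized. Background was judged on each array from 27 control probe sets for bacterial transcripts, whose 95th percentile was the limit (4.50 to 5.32 in log2 units). Between 25611 and 30376 probe sets per array exceeded it. At the low end 3 arrays stood apart, since allogeneic animals 1, 3 and 4 had lower quartiles of 19.51, 19.01 and 18.72 units of deposited intensity and the remaining 7 arrays had 13.75 to 14.41. The members' differences are therefore also given without these 3 animals, a setting that leaves allogeneic animals 2 and 5 only. The ratio of 3' to 5' Gapdh controls, a sign of RNA integrity, ranged from 1.46 to 1.56 over the syngeneic and from 1.38 to 1.59 over the allogeneic arrays. Markers of the labelled cell type were high, since 15 of 16 B-lymphoid progenitor genes exceeded the limit on all 10 arrays and none passed the test. Cd24a, the one of highest signal, had log2 means of 13.85 in the allogeneic and 13.84 in the syngeneic group. The exception was the Pax5 probe set of highest mean, which exceeded the limit on 2 allogeneic and 4 syngeneic arrays.

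Of the 9 member probe sets, the one for Casp1 was higher in allogeneic leukaemia at a Benjamini-Hochberg adjusted p under 0.05 by limma, and none was lower. Across all probe sets tested 0.271% were called higher and 0.14% lower. The probe sets for Casp1 and Gsdmd and 1 of the 3 for Pycard had 5 allogeneic values that all lay above the 5 syngeneic ones, against 2.37% of all probe sets. No member had allogeneic values that all lay below, against 2.37% of all probe sets. Nlrp3 and Il1b, the sensor and a cytokine, and the other 2 Pycard probe sets had differences below 0 that did not pass. The median difference of the 9 was 0.25 on the log2 scale and that of all probe sets tested was -0.014. Probe sets for Casp1, Gsdmd and Il18 exceeded the limit on all 10 arrays, 1 Pycard probe set exceeded it on none, and the other 5 exceeded it on some arrays. Levels of different probe sets are not compared, because probes differ in brightness.

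**Figure D1:**
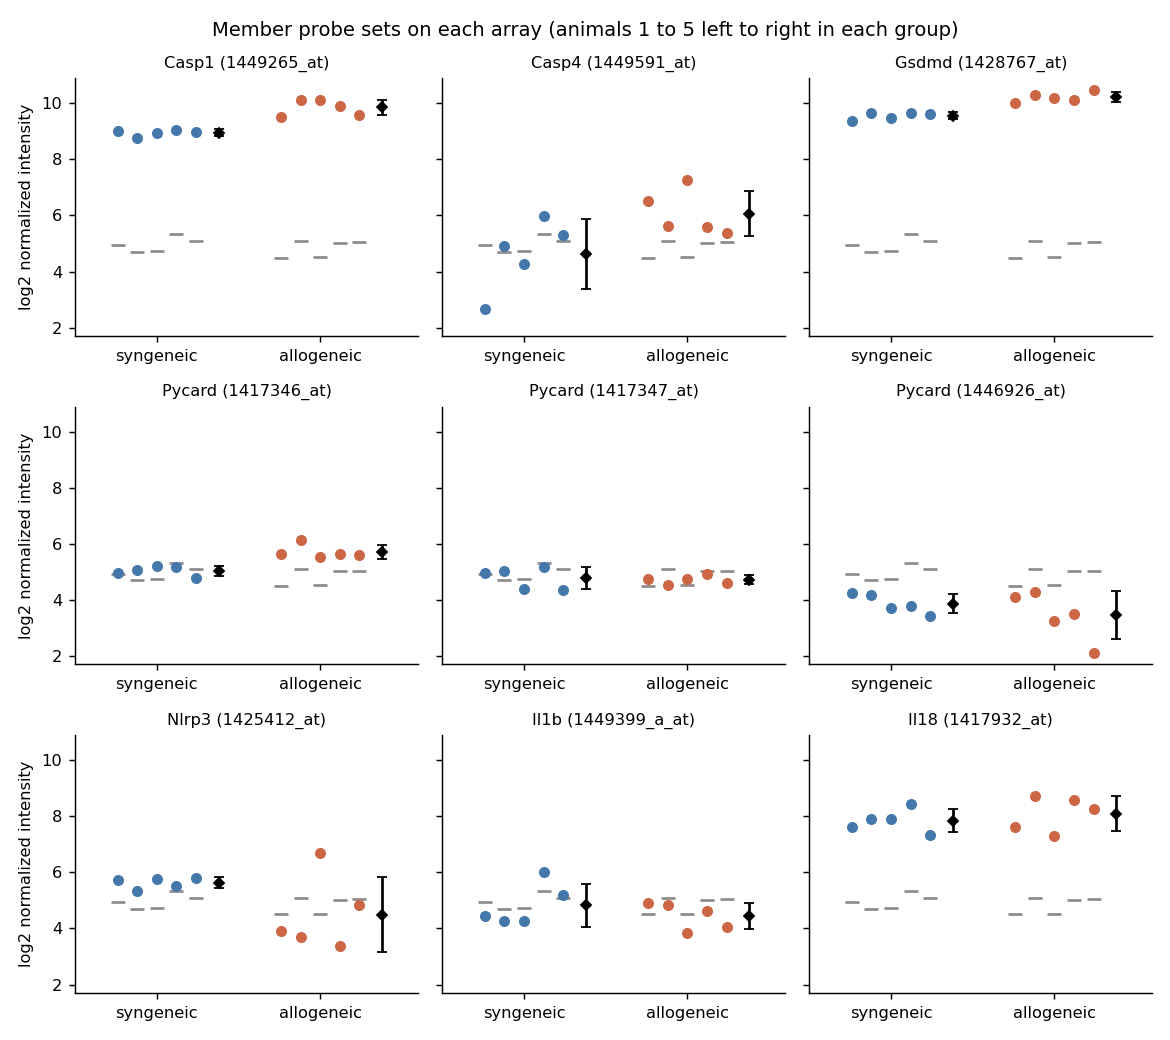
Each panel plots 1 member probe set, with log2 normalized intensity on the vertical axis and the arrays of animals 1 to 5 of each group from left to right. Coloured points are arrays, grey dashes are each array's background limit, and black diamonds with bars are group means ± SD (n = 5); the groups are apart for Casp1, Gsdmd and Pycard 1417346_at, and the lower panels scatter around the limit except for Il18.

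The caspases come first. Casp1 encodes the protease that matures both cytokines and cuts gasdermin D. Its probe set read 9.01, 8.75, 8.94, 9.06 and 8.98 on the log2 scale in syngeneic animals 1 to 5. In allogeneic animals 1 to 5 it read 9.52, 10.11, 10.11, 9.89 and 9.58. The groups did not overlap, and allogeneic animals 2 and 3 were the highest. Casp1 rose by 0.90 on the log2 scale, or 1.86-fold (SE 0.16, 95% confidence interval 0.55 to 1.25, adjusted p = 0.0492 by limma, n = 5 per group). The call sat just inside the threshold and was lost without any 1 of syngeneic animals 1 to 5 or allogeneic animals 2 to 5, with adjusted p between 0.0551 and 0.143 by limma and differences between 0.83 and 0.96. Without allogeneic animal 1 it held, at 0.98. Without allogeneic animals 1, 3 and 4 together, with animals 2 and 5 left, it was 0.90 (SE 0.18, adjusted p = 0.0457 by limma). That SE was larger than with all animals. The adjusted p depends on all probe sets, of which 1940 were called in that setting against 185 as reported. It was also lost on deposited values without quantile normalization (0.88, adjusted p = 0.0632 by limma) and on deposited values centred on array medians (0.85, adjusted p = 0.0888 by limma).

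Casp4 encodes the caspase of the route through lipopolysaccharide. Syngeneic animals 1 to 5 read 2.67, 4.92, 4.26, 5.97 and 5.31, of which 3 exceeded the limit. Allogeneic animals 1 to 5 read 6.50, 5.61, 7.27, 5.60 and 5.36, all above the limit. The groups overlapped, since syngeneic animal 4 stood above allogeneic animals 2, 4 and 5. The difference of 1.44 on the log2 scale (SE 0.60, interval 0.10 to 2.78) did not pass (adjusted p = 0.264 by limma) and ran from 0.86 to 1.78 over 19 other settings, none of which gave a call. It was 0.95 without syngeneic animal 1 and 0.86 without allogeneic animals 1, 3 and 4 together. Casp12, the next gene in the same cluster, exceeded the limit on 1 of 10 arrays and differed by 0.11 (SE 0.30).

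Gsdmd encodes gasdermin D, the pore-forming substrate of both caspases. Its values in syngeneic animals 1 to 5 were 9.36, 9.63, 9.48, 9.65 and 9.63. Those of allogeneic animals 1 to 5 were 10.02, 10.29, 10.17, 10.10 and 10.46. The groups were apart, with allogeneic animal 5 the highest and allogeneic animal 1 the lowest of its group. The difference was 0.66 on the log2 scale, or 1.58-fold (SE 0.13, interval 0.37 to 0.95), with an adjusted p of 0.0715 by limma, which missed the threshold. It passed in 8 of 20 other settings, all with a positive difference of 0.60 to 0.83. Leaving out allogeneic animal 1 gave 0.71 (adjusted p = 0.0238 by limma), and with 1 probe set per gene the adjusted p was 0.0477 by limma. Leaving out allogeneic animals 1, 3 and 4 together, with animals 2 and 5 left, gave 0.83 (SE 0.14, adjusted p = 0.0361 by limma). In that setting 1940 probe sets were called against 185 as reported.

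**Figure D2:**
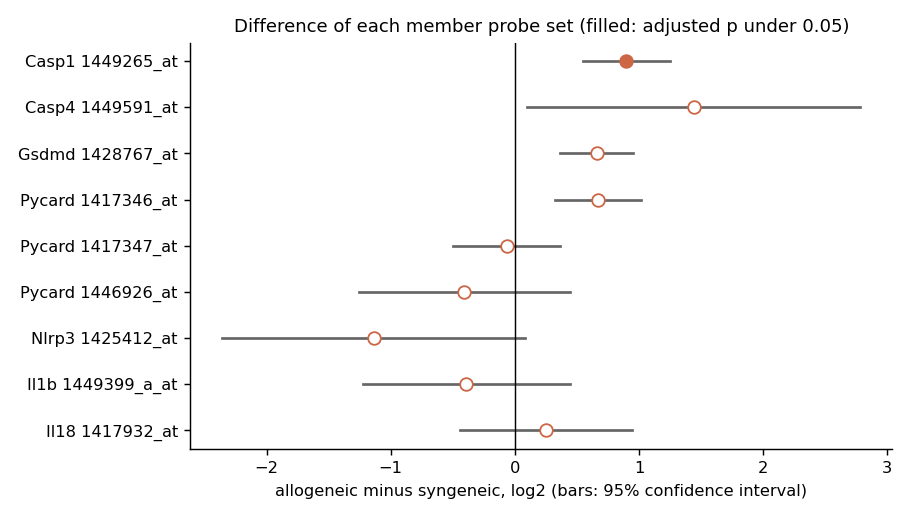
The horizontal axis is the allogeneic minus syngeneic difference on the log2 scale for each member probe set, with points for estimates and bars for 95% confidence intervals of the limma fit (n = 5 per group). The filled point, for Casp1 at 0.90, passed the test, and intervals are widest for Casp4, at 0.10 to 2.78, and Nlrp3, at -2.36 to 0.086.

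Pycard encodes ASC, the adaptor between sensor and caspase-1, and its 3 probe sets disagreed. Probe set 1417346_at read 4.97, 5.06, 5.21, 5.18 and 4.77 in syngeneic animals 1 to 5, above the limit on 3 arrays. In allogeneic animals 1 to 5 it read 5.63, 6.13, 5.54, 5.65 and 5.59, above the limit on all 5. The groups did not overlap, and allogeneic animal 2 stood above the rest of its group. The difference was 0.67 on the log2 scale (SE 0.16, interval 0.32 to 1.02, adjusted p = 0.101 by limma), and 3 of 19 other settings called it. On deposited values without quantile normalization it was 0.81 (adjusted p = 0.0490 by limma), and no other member passed there. Without allogeneic animals 1, 3 and 4 together it was 0.82 (adjusted p = 0.0659 by limma). Probe set 1417347_at exceeded the limit on 2 arrays of each group and differed by -0.066 (SE 0.19), a sign that turned on deposited values without quantile normalization (0.14) or with median centring (0.11). Without those 3 animals it was -0.21. Probe set 1446926_at was not well above background on any array, and its difference of -0.41 (SE 0.38) was -0.66 without those 3 animals and -0.072 without allogeneic animal 5.

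Nlrp3 encodes the sensor that responds to many forms of cell damage. It read 5.74, 5.34, 5.76, 5.53 and 5.78 in syngeneic animals 1 to 5, above the limit on all 5 arrays. Allogeneic animals 1 to 5 read 3.89, 3.70, 6.67, 3.36 and 4.85, and animal 3 alone exceeded the limit. Thus 4 allogeneic values lay below the syngeneic range and 1 lay above it. The difference of -1.14 on the log2 scale (SE 0.55, interval -2.36 to 0.086) did not pass (adjusted p = 0.328 by limma). Without allogeneic animal 3 it was -1.68, which narrowly missed the threshold (adjusted p = 0.0516 by limma). Without allogeneic animals 1, 3 and 4 together it was -1.36 (adjusted p = 0.0578 by limma).

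Neither cytokine gene passed the test. Il18, whose product acts on T and NK cells, read 7.61, 7.91, 7.91, 8.42 and 7.34 in syngeneic animals 1 to 5. It read 7.61, 8.72, 7.29, 8.56 and 8.26 in allogeneic animals 1 to 5. The groups overlapped, and allogeneic animals 1 and 3 lay within or below the syngeneic range while animals 2 and 4 lay above it. The difference was 0.25 on the log2 scale (SE 0.31, adjusted p = 0.721 by limma), with an interval from -0.44 to 0.94 that leaves room for changes of the size seen for Casp1. It moved to 0.092, 0.13 and 0.13 without allogeneic animal 2, allogeneic animal 4 and syngeneic animal 5, and to 0.45 and 0.40 without allogeneic animal 3 and syngeneic animal 4. It was 0.60 with array quality weights and 0.65 without allogeneic animals 1, 3 and 4 together, and none of these passed. Il1b, which encodes the fever-inducing interleukin-1 beta, read 4.26 to 6.02 in the syngeneic and 3.84 to 4.90 in the allogeneic group. It exceeded the limit on 2 syngeneic arrays and 1 allogeneic array, and its difference of -0.39 (SE 0.37) did not pass. Without syngeneic animal 4 it was -0.096 and without allogeneic animal 3 it was -0.24, and over all settings it ran from -0.54 to -0.096. Without allogeneic animals 1, 3 and 4 together it was -0.39.

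**Figure D3:**
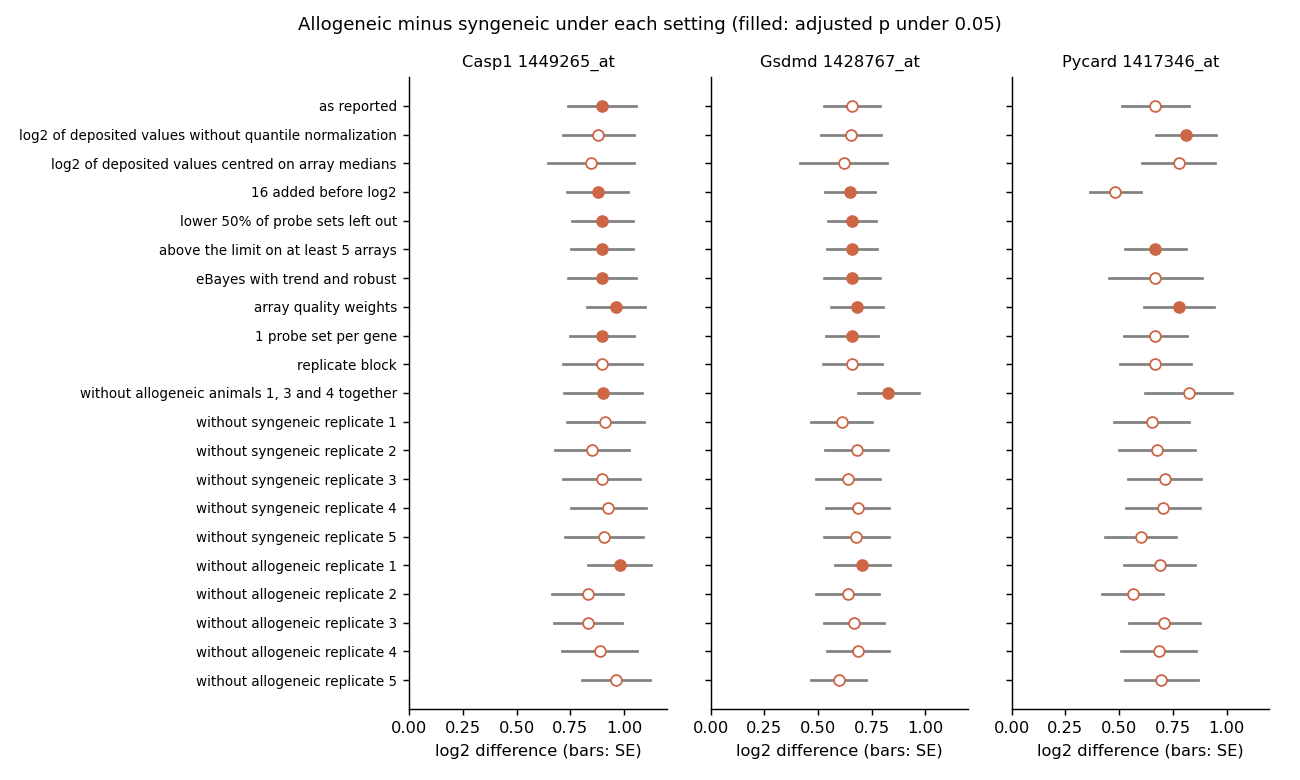
Each row is 1 setting and each panel 1 probe set; the horizontal axis is the allogeneic minus syngeneic difference on the log2 scale, bars are ± 1 SE, and filled points passed at an adjusted p under 0.05 in that setting. Differences stay above 0 in all settings shown (Casp1 0.83 to 0.98, Gsdmd 0.60 to 0.83, Pycard 1417346_at 0.48 to 0.82), while the side of the threshold changes; Pycard has no point where the lower 50% of probe sets were left out.

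Other genes of the pathway came from lists that did not include the members, with the brightest probe set on average standing for each gene. Of 55 listed genes, 44 had a probe set with a single symbol, and 1 of these rose, 0 fell and 43 did not pass by limma. The median difference was -0.0044 on the log2 scale, and 22 of the 44 were above 0. The background share called higher, 0.271%, applies here too. The other 11 listed genes were not analysed here.

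Irf1, a transcription factor that acts on Casp1 and on antigen presentation genes, was the gene that rose. It increased by 1.71 on the log2 scale, or 3.27-fold (SE 0.15, adjusted p = 0.00141 by limma), with values of 9.83 to 10.35 in the syngeneic and 11.62 to 12.20 in the allogeneic group. The related factors Irf8 and Irf2 differed by 0.16 (SE 0.14) and 0.053 (SE 0.12), while a second probe set of Irf8, above the limit on all 10 arrays, differed by 0.55 (SE 0.17, adjusted p = 0.172 by limma). Irf2 is known to drive Gsdmd transcription. Spi1, the myeloid and B-cell factor PU.1, differed by 0.071 (SE 0.20), so 3 of the 4 measured factors did not pass.

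None of the 9 measured inflammasome sensors passed. Nlrp9b differed by 1.01 (SE 0.50) but exceeded the limit on 2 of 10 arrays. Aim2, a sensor of cytosolic DNA, exceeded the limit on all 10 arrays and differed by -0.31 (SE 0.20, adjusted p = 0.460 by limma). Naip2, Naip5 and Naip6, which recognise bacterial flagellin and secretion system proteins, also exceeded the limit on all 10 arrays, with differences of 0.13, -0.028 and -0.17. Mefv, Nlrp6 and Nlrp12 were not well above background on any array.

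Of 8 measured assembly factors and upstream channels, none passed, and 7 exceeded the limit on all 10 arrays. P2rx7, the ATP-gated channel upstream of NLRP3, differed by 0.44 (SE 0.21, adjusted p = 0.332 by limma), by 0.14 on a second probe set, and by 0.0055 on another that never exceeded the limit. Casp8 differed by -0.12 (SE 0.14). Nek7, the kinase that binds NLRP3, differed by -0.046 (SE 0.13), by -0.20 on a second probe set, and by -0.59 on another that exceeded the limit on 1 of 10 arrays. None of the 3 measured pore-forming and executioner genes passed. Ninj1, whose product ruptures the membrane after pore formation, differed by 0.59 (SE 0.17, adjusted p = 0.150 by limma) with groups that did not overlap, and all 4 of its probe sets had differences above 0. The 2 probe sets of Gsdme, a gasdermin cut by other caspases, gave different values. One, above the limit on all 10 arrays, differed by 0.012 (SE 0.19), and the other, above it on 5 syngeneic and 3 allogeneic arrays, by -1.30 (SE 0.49, adjusted p = 0.228 by limma).

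The 10 measured interleukin-1 family ligands, receptors and inhibitors gave no call. Il1r1, the signalling receptor for interleukin-1, differed by 0.79 (SE 0.23, adjusted p = 0.153 by limma) but exceeded the limit on 1 of 10 arrays, and its other probe set, never above the limit, differed by -1.29. Il1rap, the co-receptor, differed by -0.37 (SE 0.14, adjusted p = 0.228 by limma), and its allogeneic values all lay below the syngeneic ones, while its other 4 probe sets, each above the limit on 4 arrays or fewer, differed by -0.31 to 0.21. Il18bp, the secreted inhibitor of interleukin-18, differed by 0.54 (SE 0.24, adjusted p = 0.289 by limma). None of 10 measured interleukin-1 and Toll-like receptor signalling genes passed, and the smallest p-values were those of Ly96 (-0.24, SE 0.21) and Traf6 (0.30, SE 0.34). The other 4 probe sets of Traf6 had the opposite sign (-0.41 to -0.20), of which 1 never exceeded the limit.

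**Figure D4:**
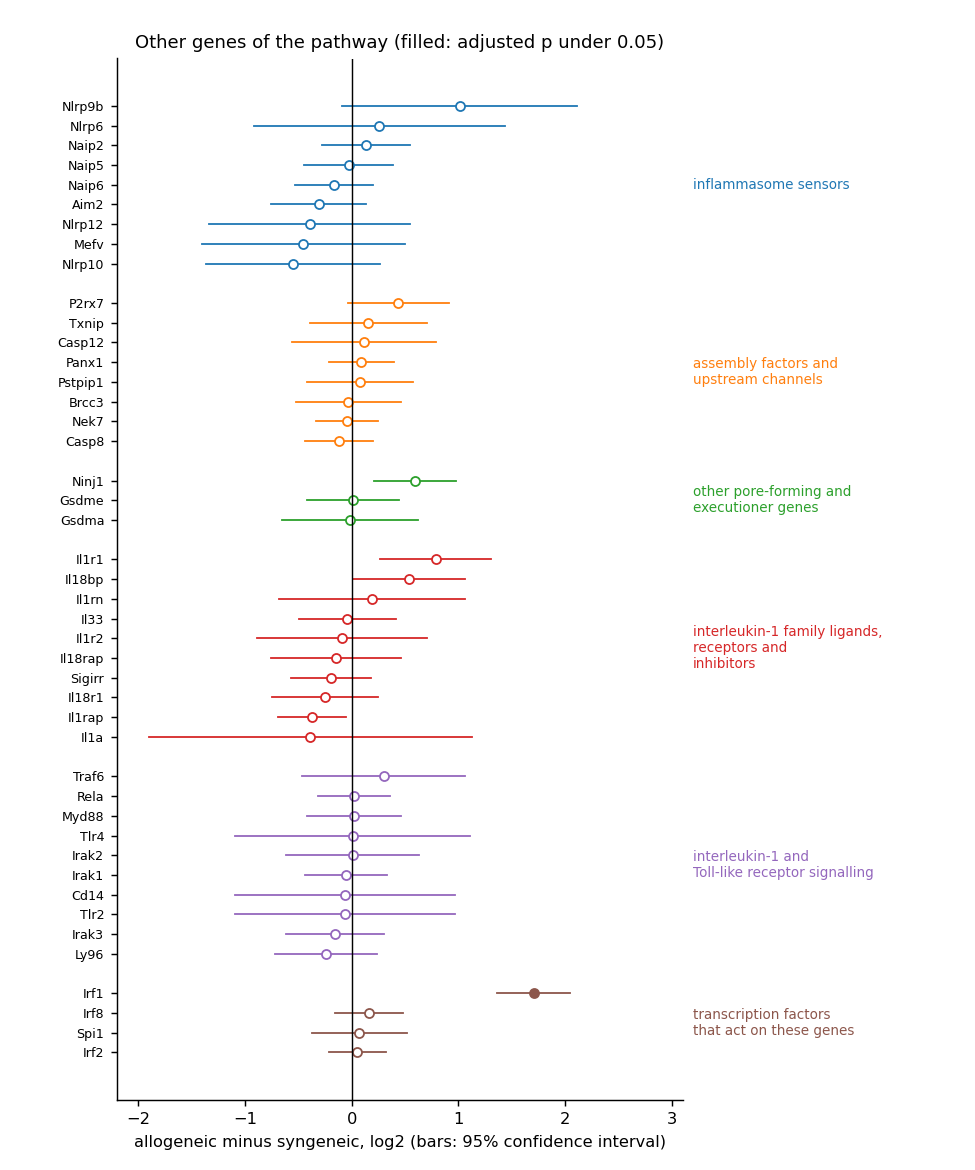
Points are allogeneic minus syngeneic differences on the log2 scale for 44 other genes of the pathway, coloured by list, and bars are 95% confidence intervals of the limma fit (n = 5 per group). Irf1, at 1.71, is the filled point and the one that passed; most of the others have intervals that include 0.

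Because most members are strongly expressed in myeloid cells, markers of other cell types were read beside them. In such bulk samples, fewer cells of a type and less RNA per cell cannot be told apart. The summed normalized intensity of 18 macrophage and monocyte markers was 9925 to 12199 in the syngeneic and 13382 to 15056 in the allogeneic group, so the sums did not overlap and moved in the same direction as Casp1 and Gsdmd. Their part in those differences was not tested. The sums add linear intensity, so they mostly follow the brightest markers of a list, here Mpeg1 and Fcgr3. Within that list 9 of 18 markers had a difference above 0, the median was 0.053 on the log2 scale, and none passed. Mpeg1 had means of 12.63 in the allogeneic and 11.95 in the syngeneic group, and Fcgr3, whose mean over all 10 arrays was the highest of the list, had 12.46 and 12.25. Of the 18, 9 exceeded the limit on all 10 arrays. Besides Mpeg1 and Fcgr3 they were, with allogeneic and then syngeneic means, Lyz2 (8.33 and 8.01), C1qc (6.51 and 5.96), Mrc1 (9.41 and 9.51), Cd68 (7.20 and 7.39), Vcam1 (5.94 and 6.23), Ccr2 (6.30 and 6.71) and Csf1r (5.71 and 5.82). C1qc differed by 0.55 (SE 0.24, adjusted p = 0.280 by limma). Itgam and Cx3cr1 were not well above background on any array, and neither was Cd14. Adgre1 exceeded the limit on 3 allogeneic arrays and no syngeneic array.

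Sums of dendritic cell markers also did not overlap (1315 to 1960 in the syngeneic and 2594 to 3985 in the allogeneic group). Bst2, the marker of highest signal there, weighs most in these sums and is itself interferon-inducible. It rose by 1.37 (adjusted p = 0.0171 by limma), while 8 of the 9 did not pass. Of the 9 markers, 7 had a difference above 0, and the median was 0.48. Zbtb46 differed by 0.58 (SE 0.16, adjusted p = 0.138 by limma) and Ccr7 by 0.48 (SE 0.23, adjusted p = 0.325 by limma), both above the limit on all 10 arrays. Itgax, Cd209a and Batf3 never exceeded the limit. The median deviation of these markers from their syngeneic means was 0.44 to 0.94 over the allogeneic and -0.32 to 0.12 over the syngeneic arrays. Stroma and endothelium markers had sums of 678 to 867 and 873 to 1127, with 12 of 14 above 0 and none called, and 5 of 14 (Cxcl12, Tek, Emcn, Vwf and Pdgfrb) never above the limit. Pecam1 was their brightest and weighed most in their sums, with means of 9.16 and 8.75 in the allogeneic and syngeneic groups. Their part in the members' differences was not tested either.

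Sums of the remaining lists overlapped between groups and none of their genes passed. Among NK cell markers Gzma was the brightest, with means of 9.92 in the allogeneic and 8.86 in the syngeneic group, and sums were 749 to 1079 in the syngeneic and 1022 to 1771 in the allogeneic group. Of these 9 markers 5 (Ncr1, Klrk1, Gzmb, Eomes and Klra8) never exceeded the limit. The brightest gene of the other lists, by mean over all 10 arrays, was S100a8 for granulocytes (10.62 in the allogeneic and 10.30 in the syngeneic group), Cd8a for T cells (5.73 and 5.53) and Tnfrsf13c for mature B cells (12.30 and 12.46). It was Mzb1 for plasma cells (13.10 and 12.94), Klf1 for the erythroid list (6.20 and 5.92) and Pf4 for megakaryocytes and platelets (5.99 and 5.74).

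**Figure D5:**
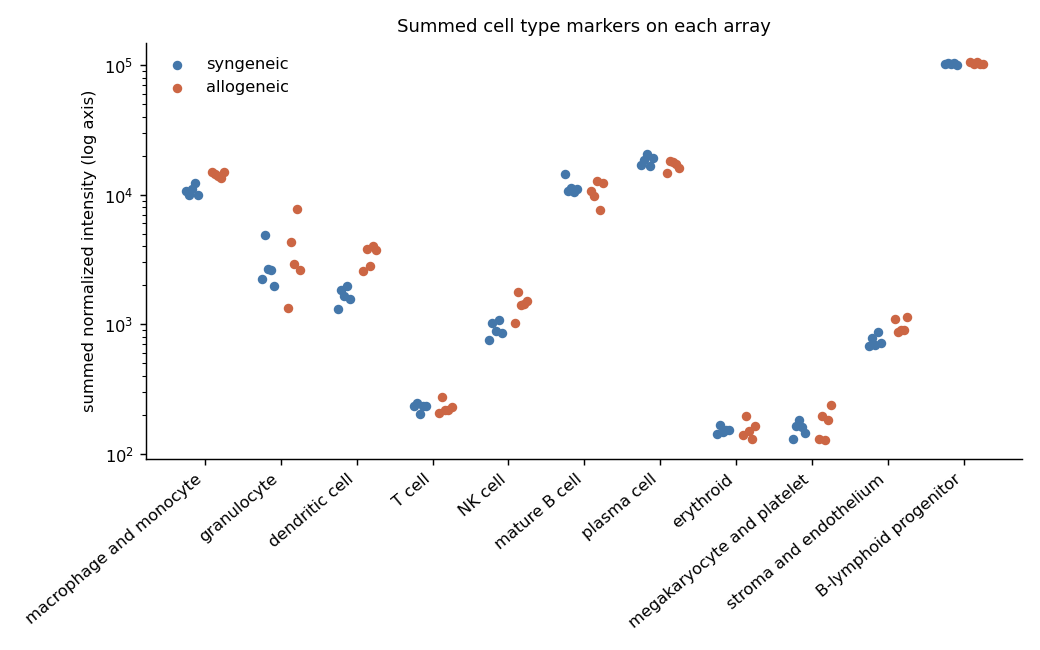
Points are arrays, with animals 1 to 5 from left to right in each group, and the vertical log axis is the summed normalized intensity of each marker list. Syngeneic and allogeneic sums are apart for the macrophage and monocyte, dendritic cell, and stroma and endothelium lists, and they overlap for the other lists.

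Animal-to-animal variation was described by each array's deviation from its own group mean over the 10 arrays, with no test, since the group difference is thereby removed. Among 19353 named probe sets above the limit on all arrays, Casp1 was most like Myadm, Med1 and Zfp11 (Pearson r 0.929, 0.897 and 0.889). Gsdmd was most like Limd2, Drap1 and Cox6b1 (0.975, 0.974 and 0.97), and Il18 most like 4933412E12Rik, Ift122 and Gramd3 (0.946, 0.945 and 0.939). These are the highest of many values over few arrays. Between members, r was -0.028 between Casp1 and Gsdmd, 0.12 between Casp1 and Casp4, and 0.12 between Casp1 and Il18. The highest value among the 9 probe sets was 0.73, between Pycard 1417346_at and Il18, both of which were highest in allogeneic animal 2.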

How the data were processed

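The deposited table holds 45101 linear intensity values for each of 10 arrays, and no source used here gives how the authors summarised and scaled them. Deposited intensity ran from 0.74 to 22385, and 361 to 461 values per array were exactly 1. Per the labels' protocols, total RNA was extracted with Trizol and biotinylated cDNA was made with NuGEN kits.

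Values were converted to log2 and quantile normalization between arrays followed. The 64 controls were then removed, which left 45037 probe sets. Symbols came from the platform annotation and were updated by gene identifier for 34741 probe sets, with 34945 having 1 symbol, 932 several and 9160 none. Groups were compared with limma 3.58.1 in R 4.3.3 (lmFit and eBayes, default settings), with Benjamini-Hochberg adjustment over all probe sets. The script was tested on simulated data. No filter on low values was applied, and precision is limited by how many arrays there are.

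Members, gene lists and motifs were chosen with earlier results of these data known. Named were all member probe sets, called genes of each pathway list or the 2 of smallest p, the marker of highest signal per list, and the 3 probe sets most like each member above the limit on all arrays. Pax5, Mpeg1, Adgre1, Lyz2, C1qc, Mrc1, Cd68, Vcam1, Ccr2, Csf1r, Zbtb46, Ccr7, Itgam, Cx3cr1, Cd14, Casp12, Nek7, Il18bp, Naip2, Naip5, Naip6, Mefv, Nlrp6, Nlrp12, Irf8, Irf2, Spi1 and markers never above the limit were named after their values were seen. Animal numbers are shared between the groups but were not used to pair the samples in the main fit.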

Additional observations from a re-analysis of the deposited data

Results flagged for a closer look

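Among 18 groups of 5 animals, 1 held a sample far from the rest, and chance would give about 1 in 20. Allogeneic animal 2 read 6.13 for Pycard 1417346_at against 5.54 to 5.65 in the other 4 allogeneic animals. Its array had a background limit of 5.09.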

How the results depend on the processing

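Over 20 alternatives the differences of Casp1, Gsdmd, Pycard 1417346_at, Casp4 and Il18 stayed above 0 and those of Nlrp3, Il1b and Pycard 1446926_at below 0 wherever they were computed. The differences of Casp4, Nlrp3, Il1b, Il18 and the other 2 Pycard probe sets passed in none. Calls were less stable, and the causes were not tested. Of the 9 member probe sets, 1 passed as reported, that for Casp1. On deposited values without quantile normalization 1 passed too, but it was Pycard 1417346_at in place of Casp1. None passed on deposited values centred on array medians (0) or with a replicate block (0), 2 passed with 16 added before log2, with the lower 50% left out, with eBayes trend and robust, with 1 probe set per gene, and without allogeneic animals 1, 3 and 4 together, and 3 passed with probe sets above the limit on at least 5 arrays and with array quality weights. Leaving out 1 animal gave 0 to 2. The 185 calls over all probe sets became 510 with 16 added, 631 and 616 under the filters, 482 with trend and robust, 1398 with array weights, 106 with 1 probe set per gene, 7 with the replicate block and 1940 without allogeneic animals 1, 3 and 4, whose arrays had the raised lower quartile. Leaving out 1 animal gave 70 (without syngeneic animal 5) to 2022 (without allogeneic animal 1). Of these 185 calls 65.9% were higher, against 39.6% with array weights and 32.9% without those 3 animals. The 1 called pathway gene became 0 with the replicate block and 2 without allogeneic animals 1, 3 and 4, and was 1 without any single animal. Pycard 1417347_at turned sign, to 0.14 without quantile normalization, 0.11 with median centring, 0.010 with array weights and, among the settings without 1 animal, to 0.031 without syngeneic animal 4 (range -0.18 to 0.031).

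Animal numbers were not used to pair the samples, and deviations of same-numbered animals correlated at 0.34, 0.37, -0.012, -0.24 and -0.15. The closest syngeneic animal had the same number for allogeneic animals 1 and 2 and another number for 3, 4 and 5. These correlations cannot decide whether the numbers pair the samples. With number as a replicate block Casp1 kept its difference of 0.90 with an adjusted p of 0.185 by limma. Probe sets near the background limit (Casp4, Pycard, Nlrp3, Il1b) give weak limits on any change.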

Other observations

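Sample titles end in one number for allogeneic animals 1, 2 and 4 and in another for allogeneic animals 3 and 5. The number before it is the same for allogeneic animals 4 and 5, and no label says what either number marks. For Nlrp3, animals 3 and 5 read 6.67 and 4.85 on the log2 scale and animals 1, 2 and 4 read 3.89, 3.70 and 3.36. For Il1b, animals 3 and 5 read 3.84 and 4.05 and animals 1, 2 and 4 read 4.90, 4.83 and 4.60. The 2 genes thus split these animals in opposite directions, on arrays where most of these values lay below the background limit. Pycard 1417346_at, above the limit on all of these arrays, read 5.54 and 5.59 in animals 3 and 5 against 5.63, 6.13 and 5.65. Pycard 1446926_at, never above the limit, read 3.27 and 2.12 against 4.12, 4.29 and 3.50. The remaining member probe sets did not separate these animals. This split was noticed after the values were seen and was not tested. The share of all probe sets that separate these animals was not counted, so the split cannot be read as particular to these genes.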
